A study of Mus musculus with 12 samples.

Results

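MicroRNAs (miRNAs) of whole blood and of colon were compared in mice 2, 4 and 8, the animals that the study names as its controls in a study of colitis induced by dextran sulfate sodium (DSS). The members are 6 of the 12 small RNA libraries of the study, 3 from blood and 3 from colon, chosen by library name and paired by the number of the mouse, and all 1978 mature miRNA entries of the count table were used. The animals were male C57BL/6 mice, 8 weeks of age, and the control animals drank water without DSS while the other mice drank water with 1.5% DSS over 7 days, and all were killed on day 8. GEO's disease state field does not match the naming of the study for every animal: it marks mice 2 and 4 as having colitis and mouse 8 as a control, so results were also computed for mice 7, 8 and 9, the controls by that field. The tissue field of GEO was used, since the source field gives the other tissue for each library.

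A miRNA is an RNA of about the length of the sequences printed below, cut from a hairpin precursor whose arms give the 5p and the 3p product. It guides Argonaute proteins to messenger RNAs that pair with its seed, here bases 2 to 8, and lowers their translation or stability. Whole blood is mostly red cells, and red cells and their precursors are known for miR-451a, miR-144 and miR-486. The colon wall holds epithelium, known for miR-192, miR-194, miR-215 and the miR-200 group, and a muscle coat, known for miR-143 and miR-145, with stromal cells, vessels, nerves and immune cells.

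Sequences of miRNA families that differed between the tissues are shown here, 5′ to 3′, with the seed in capitals, as the deposited tables give them. The miRNAs higher in blood included red cell miRNAs and members of a family with the seed AUUGCAC, of which miR-363-3p had a low level:
miR-486a-5p: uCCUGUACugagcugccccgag
miR-451a: aAACCGUUaccauuacugaguu
miR-25-3p: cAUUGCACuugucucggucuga
miR-92a-3p: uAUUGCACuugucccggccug
miR-363-3p: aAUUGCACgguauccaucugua
Among the epithelial miRNAs higher in colon, miR-192-5p and miR-215-5p share a seed, as do miR-200b-3p, miR-200c-3p and miR-429-3p, and miR-200a-3p and miR-141-3p, while miR-194-5p had a seed of its own:
miR-192-5p: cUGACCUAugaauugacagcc
miR-215-5p: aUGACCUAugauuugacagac
miR-194-5p: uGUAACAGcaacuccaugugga
miR-200b-3p: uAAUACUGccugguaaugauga
miR-200c-3p: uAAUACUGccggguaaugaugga
miR-429-3p: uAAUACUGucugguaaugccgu
miR-200a-3p: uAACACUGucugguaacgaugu
miR-141-3p: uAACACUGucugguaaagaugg
The let-7 family has the seed GAGGUAG in both tissues, and its members differ by few bases outside the seed:
let-7i-5p: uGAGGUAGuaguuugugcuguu
let-7a-5p: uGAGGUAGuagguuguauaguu
let-7b-5p: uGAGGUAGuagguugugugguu
let-7c-5p: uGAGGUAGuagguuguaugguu
These sequences equal those of RefSeq except that miR-486a-5p had no entry in the RefSeq table. In GRCm38.p6, the hairpin of miR-451a is at chr11:78073170-78073241 on the plus strand, with no other annotated gene over it. The hairpin of miR-25 is at chr5:138165321-138165404 on the minus strand, where it overlaps an exon of some annotated transcript of Mcm7, coding or not. The hairpin of miR-192 is at chr19:6264844-6264932 on the plus strand, with no other annotated gene over it, and that of miR-215 is at chr1:185313581-185313692 on the plus strand, where it overlaps an exon of the antisense gene 2010103J01Rik and lies opposite to an intron of Iars2. The hairpins of miR-200b (chr4:156055681-156055750) and miR-429 (chr4:156053905-156053987) are on the minus strand within Ttll10.

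The libraries held 25073378, 23667262 and 24605267 counts in blood and 15340350, 17681640 and 18143170 counts in colon of mice 2, 4 and 8. Each tissue was alike between animals: over the 135 most abundant miRNAs, log2 levels of pairs of mice correlated at 0.978 to 0.989 in blood and at 0.982 to 0.993 in colon, against 0.172 to 0.256 between blood and colon, as a description. Nothing in the labels ties the 3 mice of a tissue to separate cages or days. RNA was stabilised and extracted with different kits in blood and in colon, so tissue and kit cannot be told apart. Levels are given as CPM, counts per 1000000 of the library size after TMM scaling (a scaling by the bulk of the miRNAs), and a log2 fold change is blood over colon. A miRNA is called SDE where edgeR's quasi-likelihood test, with the mouse as a block, gave a fold change over 1.5 at a Benjamini-Hochberg adjusted p (padj) not above 0.05.

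The composition of the blood libraries rested on very few miRNAs. miR-486a-5p and miR-486b-5p together took 75.4%, 83.01% and 74.7% of the counts of blood in mice 2, 4 and 8 and 0.276%, 0.356% and 0.251% of those of colon. Their mature sequences are the same, and the counts of miR-486a-5p in blood (9269577, 9821824 and 9020812) were close to those of miR-486b-5p (9636419, 9824801 and 9366723), so reads of either gene cannot be assigned to one of them. With each mature sequence counted once, this sequence was 61.0%, 71.0% and 60.1% of the blood counts. Between 6 and 11 miRNAs made up 90% of the counts in blood, against 29 or 30 in colon. Without miR-486a-5p and miR-486b-5p, 27 to 30 miRNAs made up 90% of the remaining blood counts.

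After miR-486, blood was led by let-7i-5p with 3.32% ± 0.861 of the counts (SD, n = 3), by miR-25-3p with 2.19% ± 0.115 and by miR-92a-3p with 2.18% ± 0.255. miR-423-5p took 1.61% ± 0.512 and miR-451a 1.10% ± 0.378. The colon was led by miR-143-3p, a miRNA known from smooth muscle, with 32.2%, 25.8% and 30.8% of the counts in mice 2, 4 and 8, against 0.0172%, 0.0136% and 0.0456% in blood. miR-192-5p followed with 7.74% ± 0.750, let-7c-5p with 6.47% ± 0.594 and miR-26a-5p with 6.00% ± 0.599. miR-148a-3p (3.51% ± 0.474) and miR-21a-5p (3.42% ± 0.310) were also among the 10 leading miRNAs of colon. Of the 10 leading miRNAs of blood and of colon, only let-7a-5p was in both sets, with 0.854% ± 0.565 of the counts in blood and 3.62% ± 0.349 in colon.

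**Figure D1:**
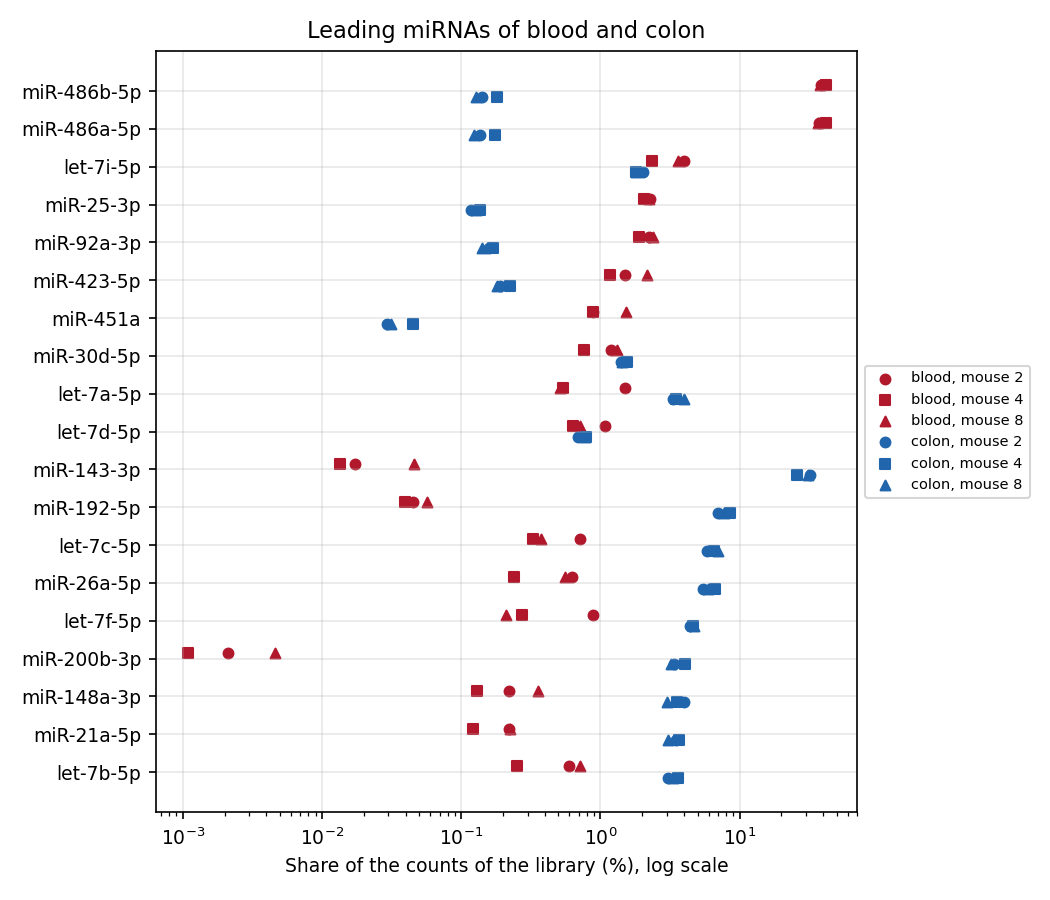
Share of the counts of each library (percent, log scale) for the 10 leading miRNAs of blood and of colon, which are 19 miRNAs in all; symbols are the 3 mice, red is blood and blue is colon. miR-486b-5p and miR-486a-5p sit near 40% in blood and below 0.2% in colon, and miR-143-3p sits between 25.8% and 32.2% in colon and below 0.05% in blood.

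By seed, with each mature sequence counted once, the let-7 seed GAGGUAG accounted for 14.6%, 7.88% and 9.97% of the blood counts and 20.8%, 22.5% and 23.2% of the colon counts. This order turned without the miR-486 entries, where the let-7 seed held 29.8% ± 6.65 of the remaining counts in blood and 22.2% ± 1.25 in colon (SD, n = 3). The seed AUUGCAC of miR-25 and miR-92 accounted for 7.18%, 6.79% and 7.32% in blood and 0.283%, 0.314% and 0.274% in colon. The epithelial seeds went the other way: UGACCUA (miR-192 and miR-215) accounted for 9.40%, 11.2% and 10.1% in colon and at most 0.0973% in blood, and AAUACUG (miR-200b, miR-200c and miR-429) for 4.42%, 5.42% and 4.33% in colon and at most 0.123% in blood. The seed GUAAACA of the miR-30 family was near the same share in both, 2.38% ± 0.521 in blood and 2.56% ± 0.123 in colon, but without the miR-486 entries it was 6.58% ± 0.415 in blood and 2.56% ± 0.124 in colon.

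The repertoires overlapped in kind more than in amount. With at least 10 counts in each of the 3 libraries of a tissue as the meaning of detected, 429 of the 1978 entries were detected in blood and 484 in colon. Both tissues shared 310, which is 72.3% of those of blood and 64.0% of those of colon. A further 174 were detected in colon alone and 119 in blood alone, and 703 had no count in any of the 6 libraries. The limit is a raw count, and depth outside miR-486 was uneven. Without miR-486a-5p and miR-486b-5p, blood libraries of mice 2, 4 and 8 held 6167382, 4020637 and 6217732 counts, against 15297978, 17618703 and 18097589 in colon. The shared miRNAs held over 99% of the counts of every library, from 99.04% in colon of mouse 8 to 99.95% in blood of mouse 2. In blood most of these counts were those of miR-486a-5p and miR-486b-5p. Some of those detected in colon alone were not of low level there: miR-145a-5p reached 774, 485 and 3402 CPM and miR-429-3p 833, 1079 and 865 CPM in colon of mice 2, 4 and 8, from 18, 6 and 58 and from 15, 1 and 30 counts in blood.

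Of the 174 miRNAs detected in colon alone, 33 had 0 counts in all 3 blood libraries, and of the 119 detected in blood alone, 6 had 0 counts in all 3 colon libraries. The most abundant with 0 counts in blood was miR-488-3p, with 157, 136 and 183 counts in colon, at least 43.4-fold above the CPM that 3 counts in a blood library give. miR-668-3p, a product of the Dlk1-Dio3 locus, had 95, 109 and 90 counts in colon (at least 26.7-fold). miR-3099-3p had 82, 88 and 97 (at least 24.3-fold), miR-369-3p had 66, 71 and 61 (at least 18.0-fold), and miR-137-3p, known from neurons, had 61, 65 and 45 (at least 15.6-fold). All of these are low levels beside the leading miRNAs of colon. In the other direction miR-7036b-3p was the highest, with 50, 55 and 75 counts in blood and 0 in colon, at least 19.7-fold above the CPM of 3 counts in a colon library. miR-7003-5p had 21, 26 and 22 counts in blood (at least 7.67-fold), miR-1954 had 19, 19 and 25 (at least 6.88-fold), miR-7682-3p had 17, 12 and 34 (at least 6.70-fold) and miR-7237-5p had 16, 11 and 19 (at least 4.96-fold). These limits cover counting error only.

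Levels differed between the tissues for most miRNAs. Of 603 miRNAs tested, 524 were SDE (86.9%), with 211 higher in blood (35%) and 313 lower in blood (51.9%). The levels of the 3 blood libraries lay above all 3 colon libraries for 214 miRNAs (35.5%) and below all 3 for 322 (53.4%). A fold change over 16 was reached by 74 SDE miRNAs higher in blood and 188 lower in blood. The median log2 fold change of all tested miRNAs was -1.27, and it depended on the scaling: it was -0.85 with RLE factors, 0.29 with upper-quartile factors and -1.88 with total counts alone. With upper-quartile factors 279 miRNAs were higher and 248 lower, with total counts alone 176 and 337, and without miR-486a-5p and miR-486b-5p 233 and 291. Directions of small differences rest on the scaling, and 174 miRNAs were SDE and higher, and 248 SDE and lower, under each of these 4 scalings with all entries (TMM, RLE, upper quartile and total counts), whereas 17 were SDE in opposite directions in different scalings.

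**Figure D2:**
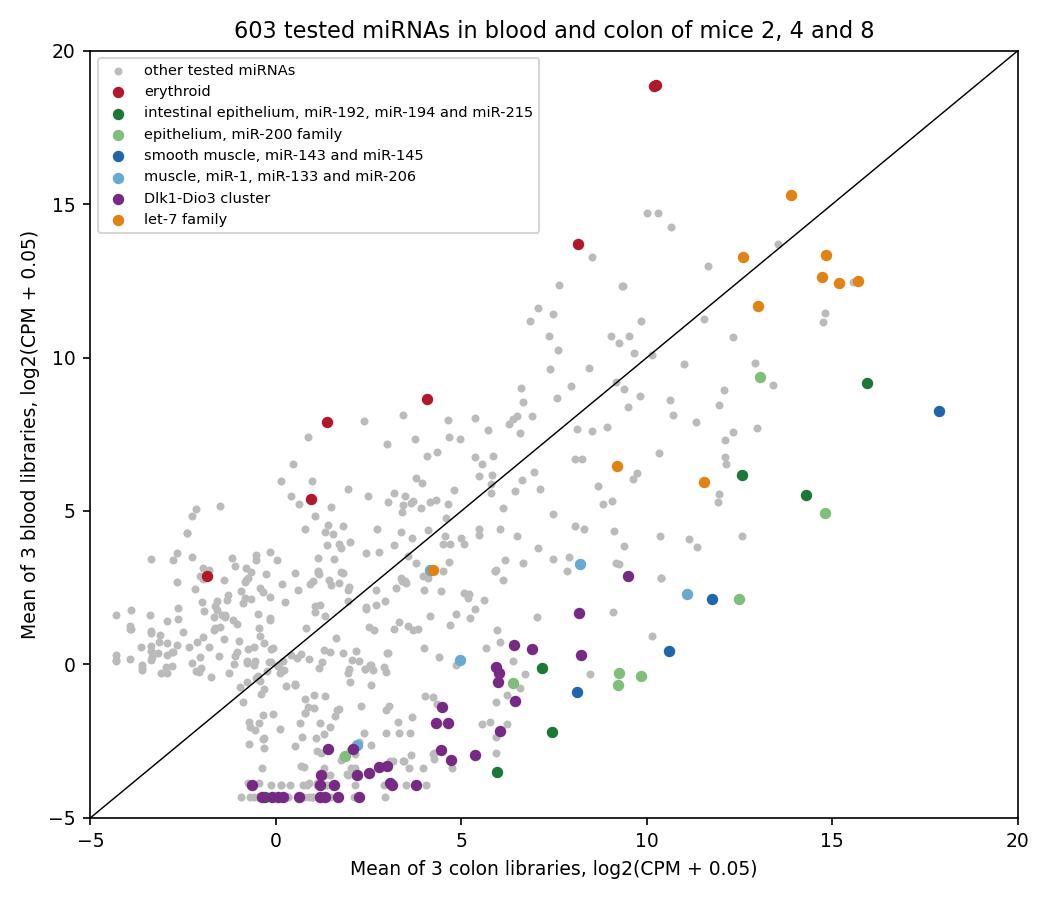
Mean level of each of the 603 tested miRNAs in the 3 blood libraries against that in the 3 colon libraries, both as log2(CPM + 0.05), with the line of equal level and 7 lists in colour. The 7 erythroid miRNAs lie above the line, and the epithelial, smooth muscle and Dlk1-Dio3 miRNAs lie below it.

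All 7 red cell miRNAs were SDE and higher in blood, under each of the 4 scalings, as were 174 of all 603 tested, with a median log2 fold change of 5.55 against -1.27 over all tested miRNAs. These 7 entries are products of miR-451a, miR-144 and miR-486 alone. The sequences of miR-486a-5p and miR-486b-5p are the same, so the 7 are not separate members. miR-486a-5p had 440909, 571785 and 418588 CPM in blood of mice 2, 4 and 8 and 1066, 1402 and 1040 CPM in colon. Its log2 fold change was 8.67 (SE 0.27, padj 3.49e-10 in edgeR), a 408-fold difference. miR-451a, which is cut from its hairpin by Argonaute 2 without Dicer, had 10593, 12112 and 17568 CPM in blood and 229, 362.8 and 265 CPM in colon, with a log2 fold change of 5.55 (SE 0.31, padj 3.1e-08). miR-144-5p, from the same transcript as miR-451a, had 453, 64.5 and 204 CPM in blood and 2.25, 4.14 and 1.26 CPM in colon, so the blood libraries were far apart but did not overlap with colon. The level in colon as a percent of the level in blood of the same mouse was 0.242%, 0.245% and 0.249% for miR-486a-5p, 2.16%, 3.00% and 1.51% for miR-451a and 6.12%, 3.88% and 3.19% for miR-486a-3p. The erythroid miRNAs thus differed in how far colon lay below blood. Blood in the vessels of the colon samples and expression by colon cells cannot be told apart in these libraries.

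White cell miRNAs were SDE in both directions. Of 4 myeloid miRNAs tested, 3 were higher in blood (35% of all tested miRNAs were) and 1 was not SDE. The latter, miR-223-5p, had 7.66, 5.76 and 6.13 CPM in blood and 11.3, 11.2 and 11.1 CPM in colon (log2 fold change -0.79, padj 0.0562 in edgeR). Under each of the 4 scalings, 1 of the 4 was higher in blood. miR-142a-5p, known from all blood-forming lineages, had 5457, 3118 and 7089 CPM in blood and 164, 255 and 179 CPM in colon (log2 fold change 4.67, SE 0.39, padj 4.37e-07 in edgeR). miR-223-3p, known from neutrophils and monocytes, had only 10.1, 12.2 and 15.5 CPM in blood and 7.42, 7.09 and 6.06 CPM in colon, and its call (log2 fold change 0.86, padj 0.0472) was lost with total counts alone (padj 0.627) and without mouse 4 or mouse 8. miR-142a-3p was SDE as well, at 21.0, 14.8 and 24.5 CPM in blood, but its call was lost with total counts alone (padj 0.512), and its log2 fold change of 0.95 became -0.91 in mice 7, 8 and 9. Of 8 lymphocyte miRNAs, 2 were higher in blood, 5 were lower and 1 was not SDE, shares near those over all tested miRNAs (35% and 51.9%). miR-150-5p, abundant in mature lymphocytes, was the first of these, with 75.2, 133.3 and 119 CPM in blood and 30.6, 38.3 and 54.8 CPM in colon (log2 fold change 1.40, padj 0.00293), a call lost with total counts alone (padj 0.103). miR-181a-5p (91.5, 98.8 and 168 CPM in blood, 1186, 1330 and 1351 CPM in colon) and miR-146a-5p (26.9, 42.1 and 50.4 against 472, 643 and 488 CPM) were lower in blood, with log2 fold changes of -3.49 and -3.78. Fewer cells of a type and less RNA per cell cannot be told apart in bulk samples such as these.

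The family with the seed AUUGCAC was split. miR-25-3p had 27268, 28444 and 25429 CPM in blood and 924, 1099 and 1079 CPM in colon, and its log2 fold change was 4.71 (SE 0.26, padj 2.78e-08 in edgeR). miR-92a-3p was close to it, with 26635, 26228 and 27466 CPM in blood, 1248, 1368 and 1195 CPM in colon and a log2 fold change of 4.40 (SE 0.26). miR-363-3p was higher in blood at a far lower level (25.5, 20.0 and 22.9 CPM against 3.48, 4.41 and 2.52 CPM). The other members were lower in blood: miR-32-5p had 0.0951, 0 and 0.278 CPM in blood and 6.40, 4.05 and 3.63 CPM in colon, and miR-92b-3p had 20.7, 4.25 and 20.6 CPM in blood and 31.8, 37.5 and 31.6 CPM in colon (log2 fold change -1.40, padj 0.0265), which was not SDE with RLE factors (padj 0.0846).

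Of the 6 miRNAs with the seed of miR-17, 4 were higher in blood (35% of all tested miRNAs were) and 2 were not SDE, and 3 were higher under each of the 4 scalings. miR-93-5p led with 589, 448 and 509 CPM in blood and 89.4, 106 and 94.8 CPM in colon (log2 fold change 2.41, padj 2.26e-05), and miR-17-5p had 223, 252 and 211 CPM against 85.4, 76.3 and 73.1 CPM (log2 fold change 1.54). The family of miR-15 and miR-16 was divided by member, with miR-16-5p (1042, 692 and 652 CPM in blood, 153, 185 and 166 CPM in colon) and miR-15b-5p (170, 315 and 346 against 8.85, 10.5 and 12.7 CPM) higher in blood and miR-195a-5p (6.80, 6.58 and 6.50 against 66.3, 74.3 and 68.7 CPM) lower. These lists have medians of 1.37 and 0.43.

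The epithelial miRNAs were the opposite of the erythroid ones. All 7 tested products of miR-192, miR-194 and miR-215 were lower in blood under each of the 4 scalings, as were 248 of all 603 tested, with a median log2 fold change of -7.37, which stays at -7.37 with miR-192-3p, at 0 counts in blood, set to its bound. miR-192-5p had 537, 549 and 648 CPM in blood and 55019, 68383 and 65020.5 CPM in colon (log2 fold change -6.76, SE 0.28, padj 3.08e-09 in edgeR). miR-215-5p, with the same seed, differed more, with 38.7, 43.5 and 55.5 CPM in blood and 18493, 21553 and 19796 CPM in colon (log2 fold change -8.78, SE 0.33). miR-194-5p had 60.9, 77.4 and 78.7 CPM in blood and 5647, 6982 and 5724 CPM in colon. The largest log2 fold change of all tested miRNAs in this direction was that of miR-194-1-3p, at -10.62. It had 0, 2 and 0 counts in blood against 1017, 1301 and 1609 in colon, a ratio of pooled CPM of 1862 with a 95% exact Poisson interval of 515 to 15375 that covers counting error only.

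All 8 tested members of the miR-200 group were lower in blood, against 51.9% of all tested miRNAs, at a median log2 fold change of -9.93, the lowest of the 22 lists. miR-200b-3p had 25.2, 14.96 and 52.3 CPM in blood and 26403, 32735 and 27323 CPM in colon (log2 fold change -10.05, SE 0.49, padj 1.08e-08 in edgeR). miR-200a-3p had 2.66, 2.91 and 7.56 CPM in blood and 5684, 6594 and 4803 CPM in colon (log2 fold change -10.50), and miR-429-3p had 0.713, 0.0582 and 1.39 CPM against 833, 1079 and 865 CPM (log2 fold change -10.53). miR-200a-5p, the other arm of its hairpin, had a log2 fold change of -10.13. miR-200c-3p was the exception in size, with 721, 436 and 838 CPM in blood and 7329, 9604 and 8312 CPM in colon (log2 fold change -3.70, SE 0.32). It has the same seed as miR-200b-3p and differs from it by few bases, and miR-141-3p, from the hairpin next to that of miR-200c, had 0.713, 0.291 and 0.835 CPM in blood and 85.1, 93.5 and 75.2 CPM in colon (log2 fold change -7.13). The members of this transcript pair were therefore further apart in blood than in colon.

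The smooth muscle miRNAs were lower in blood. miR-143-3p had 205, 187 and 521 CPM in blood and 252992, 207624 and 260321 CPM in colon (log2 fold change -9.79, SE 0.38, padj 2.59e-09 in edgeR). miR-145a-3p had 3.00, 2.27 and 7.70 CPM in blood and 3625, 3491 and 3335 CPM in colon. miR-145a-5p had 774, 485 and 3402 CPM in colon, so mouse 8 lay far above the other mice for this arm, while miR-145a-3p was alike in all 3. miR-145a-5p had a log2 fold change of -10.16. All 4 tested members of the list were lower in blood, with a median of -9.82. In the list of skeletal and cardiac muscle miRNAs 5 of 5 tested were lower (4 of 5 under each of the 4 scalings, and 51.9% of all tested miRNAs were lower), among them miR-1a-3p, with 7.56, 1.63 and 5.24 CPM in blood and 2209, 2025 and 2247 CPM in colon. In this list blood of mouse 2 stood apart: miR-133a-3p had 24.7, 1.223 and 2.88 CPM in blood of mice 2, 4 and 8, and miR-206-3p had 20.2, 1.223 and 3.53 CPM against 16.9, 17.3 and 18.6 CPM in colon, so that its groups overlapped and its call (log2 fold change -1.98, padj 0.0181) was lost with no block (padj 0.184) and without mouse 4 (padj 0.0629). Summed over the list, blood lay between 4.13 and 55.5 CPM and colon between 2348 and 2617 CPM.

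Further lists of the colon wall were lower in blood without exception among their tested members, where 51.9% of all tested miRNAs were lower, a share that lists of few members do not stand clear of by count alone. These were the stromal list of miR-199 and miR-214 (6 of 6, median -6.68), the miRNAs of the Hox clusters (7 of 7, median -5.85), the cluster of miR-183, miR-96 and miR-182 known from sensory and epithelial cells (6 of 6, median -7.30, or -5.33 with 3 members at 0 counts in blood set to their bound), the neuronal list (5 of 5, median -7.55, or -3.36 with 2 such members at their bound) and miR-126a of endothelium and platelets (2 of 2, median -6.94). miR-10a-5p, of the Hox lists, had 498, 542 and 604 CPM in blood and 10617, 10969 and 11065 CPM in colon. miR-196a-5p had 1.05, 0.699 and 3.76 CPM in blood and 957, 1252 and 1174 CPM in colon. miR-126a-3p, which platelets also carry, had 59.9, 31.1 and 51.2 CPM in blood and 4185, 3797 and 3766 CPM in colon. miR-375-3p, known from endocrine cells of the gut, had 14.8, 17.8 and 22.5 CPM in blood and 5626, 6646 and 5770 CPM in colon (log2 fold change -8.37). miR-9-5p, known from neurons, had 0.713, 0.291 and 1.25 CPM in blood and 453, 315 and 304 CPM in colon.

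In the list of miRNAs of endocrine cells, 4 of 4 tested were lower in blood (median -4.37, and 51.9% of all tested were lower), but miR-7a-5p, with 965, 554 and 1129 CPM in blood and 2221, 2068 and 1857 CPM in colon (log2 fold change -1.27, padj 0.00167 in edgeR), and miR-7a-1-3p (-1.10, padj 0.0223) were not called so under each of the 4 scalings.

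The Dlk1-Dio3 locus on chromosome 12 is imprinted and carries a large group of miRNAs. All 38 tested miRNAs of the 44 listed were lower in blood, under each of the 4 scalings, as were 248 of all 603 tested, with a median log2 fold change of -7.06, or -6.54 with 9 members at 0 counts in blood set to their bound. miR-127-3p was the highest in colon, with 765, 642 and 754 CPM, against 13.7, 4.08 and 3.94 CPM in blood. Summed over the list, blood lay between 13.3 and 29.3 CPM and colon between 1955 and 2238 CPM.

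miR-122-5p, the main miRNA of hepatocytes, was the exception among the miRNAs of other organs. It had 16.8, 193 and 121 CPM in blood and 11.5, 11.95 and 27.2 CPM in colon, so that blood of mouse 2 lay below colon of mouse 8. Its log2 fold change was 2.23 (SE 0.61, padj 0.00429 in edgeR), and it was 0.58 (padj 0.206) in mice 7, 8 and 9.

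**Figure D3:**
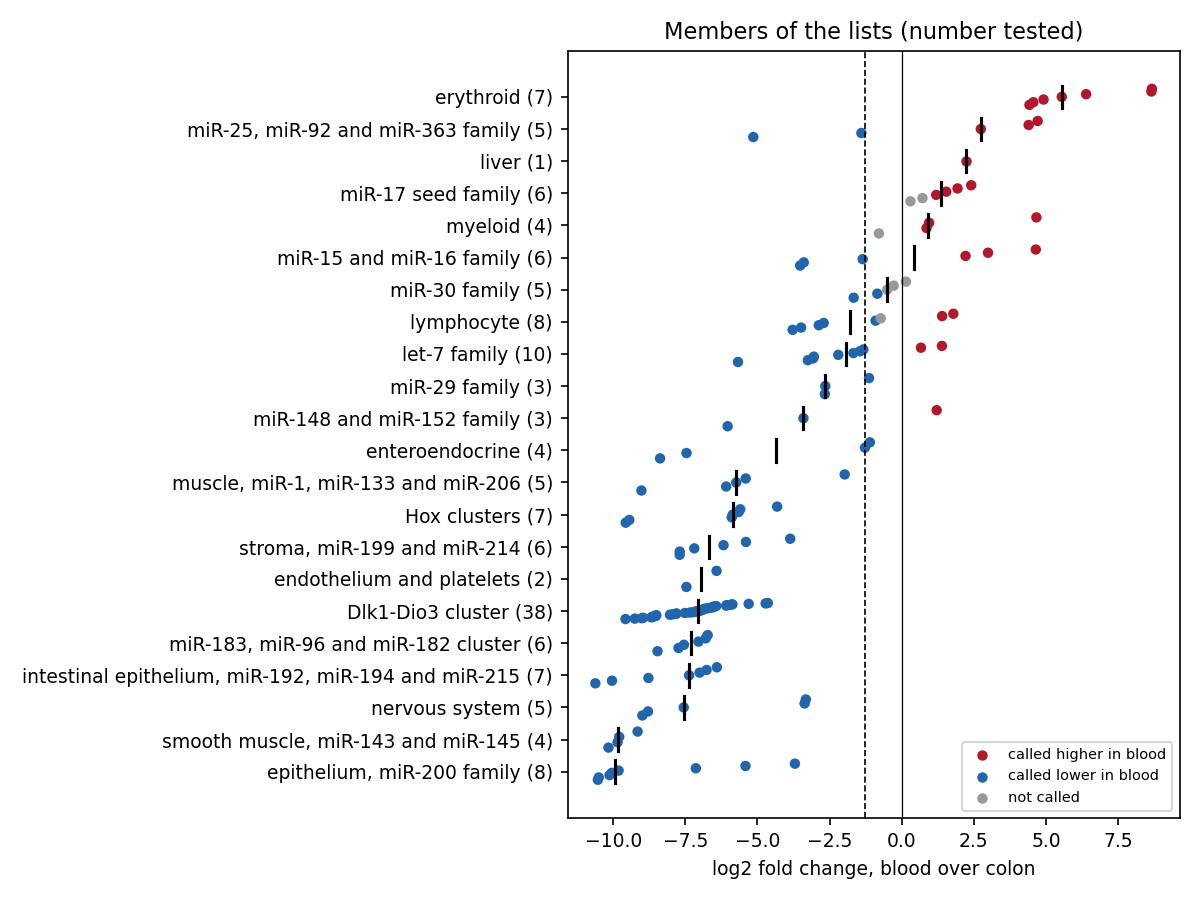
Log2 fold change, blood over colon, of each tested member of the 22 lists; red is SDE and higher in blood, blue is SDE and lower, grey is not SDE, the short bar is the median of a list and the dashed line the median of all tested miRNAs, -1.27. The lists run from a median of -9.93 for the miR-200 group to 5.55 for the erythroid list.

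Some families with members in both tissues were split. Of the 10 let-7 members tested, 2 were higher in blood and 8 were lower, against 35% and 51.9% of all tested miRNAs, and under each of the 4 scalings 0 were higher and 4 lower. let-7i-5p had 47569, 32334 and 41287 CPM in blood and 15813, 14579 and 15176 CPM in colon (log2 fold change 1.39, SE 0.22, padj 9.72e-05 in edgeR), while let-7c-5p had 8576, 4547 and 4282 CPM in blood and 45856, 52532 and 59370.5 CPM in colon (log2 fold change -3.25, SE 0.30). let-7f-5p (-3.04) and let-7b-5p (-2.20) were also lower. let-7a-5p had 17965, 7483 and 5855 CPM in blood and 26057, 28332 and 33814 CPM in colon (log2 fold change -1.67). With upper-quartile factors let-7a-5p was not SDE (padj 0.837) and let-7b-5p was not (padj 0.0885), and with total counts alone let-7i-5p was not (padj 0.052). let-7d-5p was higher in blood (log2 fold change 0.67, padj 0.03), a call lost with total counts alone (padj 0.881) and without mouse 2 (padj 0.108). Several let-7 entries differ by few bases and can share reads.

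In the family of miR-148 and miR-152, miR-148a-3p had 2628, 1800 and 4067 CPM in blood and 31204, 28436 and 25606 CPM in colon (log2 fold change -3.40, SE 0.30, padj 7.65e-07), and miR-152-3p had 6.47, 11.9 and 10.2 CPM against 669, 543 and 614 CPM (log2 fold change -6.03). miR-148b-3p was higher in blood, with 839, 871 and 728 CPM against 374, 346 and 330 CPM (log2 fold change 1.21, padj 0.00157), a call lost with total counts alone. The 3 miRNAs of the miR-29 family were lower in blood (51.9% of all tested miRNAs were), 2 of them under each of the 4 scalings, miR-29a-3p with 259.9, 312 and 443 CPM against 682, 768 and 718 CPM, and its direction turned with upper-quartile factors.

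Apart from the miR-486 sequence, the largest differences in favour of blood among miRNAs with at least 10 CPM in every blood library were those of little known miRNAs. miR-1970 had 30.9, 25.1 and 43.6 CPM in blood and 2, 2 and 7 counts in colon (log2 fold change 7.62, SE 0.53, padj 1.37e-07 in edgeR). miR-7687-5p had 21.8, 30.3 and 32.8 CPM in blood and 4, 3 and 3 counts in colon (7.40). miR-8097 (21.8, 16.7 and 20.1 CPM) and miR-8116 (17.3, 15.1 and 26.5 CPM) had 1 to 4 counts in each colon library, with log2 fold changes of 7.05 and 7.04.

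At least 100 CPM was reached in every library by 61 miRNAs, of which 27 were SDE and higher in blood, 27 SDE and lower and 7 not SDE, so that the share called was near the 86.9% of all tested miRNAs. Of these, miR-222-3p was the nearest to equal, with 574, 420 and 760 CPM in blood and 519, 601 and 606 CPM in colon (log2 fold change -0.013, 95% interval -0.67 to 0.64). miR-151-3p had 864, 1011 and 1401 CPM against 1070, 1187 and 1152 CPM (-0.086, -0.68 to 0.51). miR-30d-5p had 14312, 10538 and 15060 CPM against 11121, 12427 and 12065 CPM (0.15, -0.37 to 0.67), and miR-30c-5p had 2020, 2387 and 2952 against 3157, 3265 and 2454 CPM (-0.28, -0.87 to 0.32). For let-7j the log2 fold change was 0.49 (-0.10 to 1.08) and for miR-30e-5p it was -0.50 (-1.21 to 0.20). Their groups overlapped except for let-7j. With upper-quartile factors all 6 were SDE and higher in blood by a log2 fold change of 1.05 to 2.05. With total counts alone miR-30c-5p (-0.88, padj 0.0291) and miR-30e-5p (-1.11, padj 0.0101) were SDE and lower. With RLE factors let-7j was SDE (0.91, padj 0.00872), while miR-222-3p (0.41, padj 0.123), miR-151-3p (0.34, padj 0.152) and miR-30c-5p (0.15, padj 0.526) were not, so which miRNAs are near equal depends on the scaling.

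**Figure D4:**
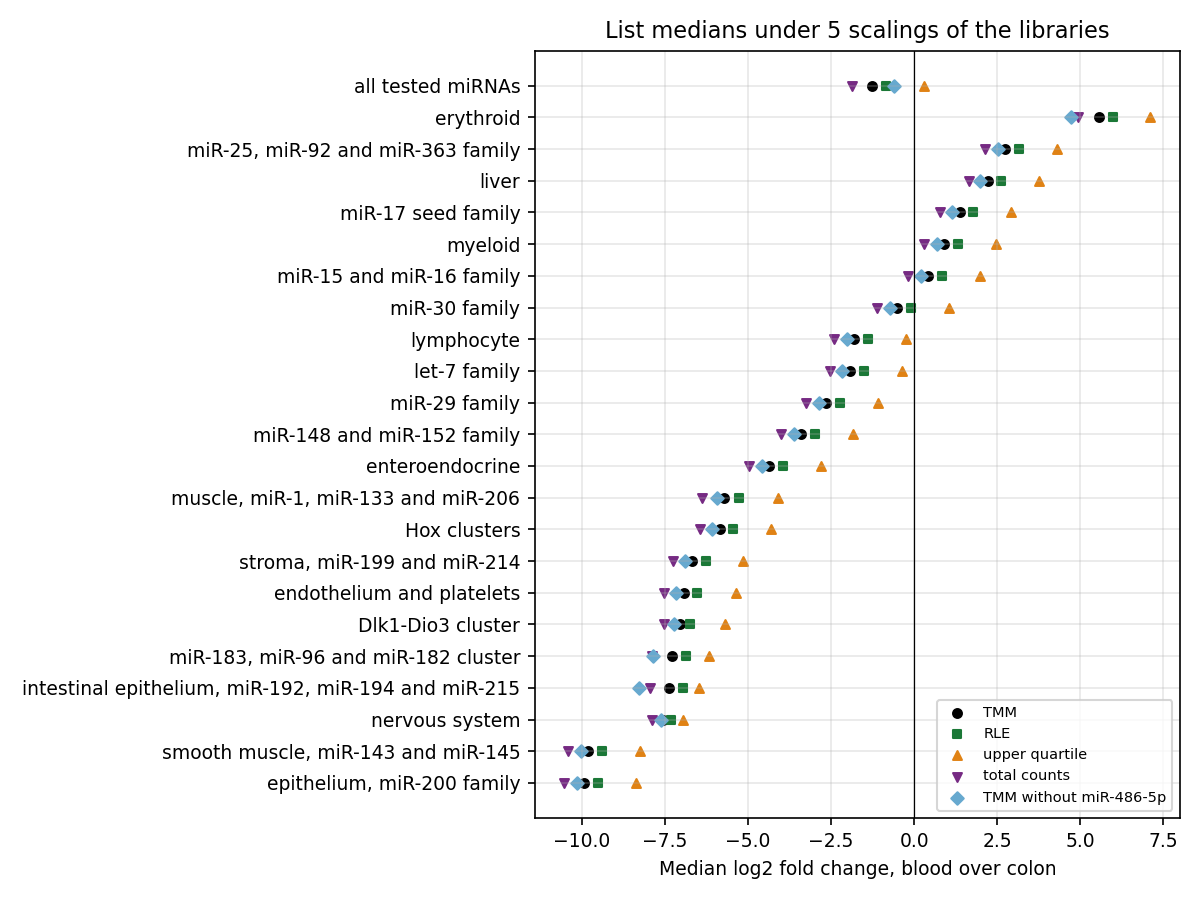
Median log2 fold change, blood over colon, of each of the 22 lists and of all tested miRNAs under 5 scalings of the libraries. The medians of a list move together by the scaling, with upper-quartile factors highest, and the medians of the list of miR-15 and miR-16 and of the miR-30 list change sign.

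Hairpins that lie within 10000 bp of each other on the same strand are often cut from a shared transcript, and their products were compared after their values had been seen. With miRNAs of a single known hairpin and a mature sequence of their own, 33 such clusters held 161 tested miRNAs. In 5 clusters all members were SDE and higher in blood, in 17 all were SDE and lower, in 3 members were SDE in both directions, in 7 members were SDE in 1 direction or not SDE, and in 1 no member was SDE, where 35% of all tested miRNAs were higher and 51.9% lower and most clusters have few members, for which agreement is common. The cluster of miR-25, miR-93 and miR-106b, on chromosome 5, had 6 of 6 products higher in blood, from miR-106b-5p at a log2 fold change of 1.94 to miR-25-3p at 4.71. The cluster of miR-429, miR-200a and miR-200b, on chromosome 4, had 5 of 5 lower, within the narrow range of -10.53 to -9.81. In the cluster of miR-17 to miR-92 on chromosome 14, products of the same hairpin differed: miR-18a-3p had 33.7, 33.5 and 44.5 CPM in blood and 1.64, 1.68 and 1.16 CPM in colon (log2 fold change 4.63, SE 0.44), while miR-18a-5p had 1.62, 0.815 and 1.67 CPM against 1.07, 0.864 and 0.652 CPM and was not SDE (0.64, padj 0.195 in edgeR).

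Both arms of 137 hairpins had a mean of at least 10 counts, and the log2 ratio of 5p to 3p counts, which does not depend on the scaling of a library, was compared between the tissues with limma and the mouse as a block. With an adjusted p of at most 0.05 and a difference over 1 in log2, 53 hairpins differed (38.7%), 27 with more 5p and 26 with more 3p in blood. Of these, 42 had at least 50 counts over both arms in every library (22 with more 5p and 20 with more 3p), while 4 (miR-490, miR-511, miR-6967 and miR-141) had under 10 counts in a library, so that their ratios there rest on the pseudocount of 0.5. With another filter, at least 50 counts over both arms in every library and no minimum per arm, 68 of 126 hairpins passed the threshold. The count of 53 was lower with each mouse left out, and by far the lowest without mouse 4, as given below. Of the 53, 5 (miR-199a, miR-199b, miR-486a, miR-486b and miR-669a) have an arm whose sequence another entry also has, and the other 48 were 23 with more 5p and 25 with more 3p. For 6 of the 53, among them miR-669a, the arm that held most counts differed between blood and colon in all 3 mice. The arms of the leading pair are shown with the seed in capitals:
miR-296-5p: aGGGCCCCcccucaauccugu
miR-296-3p: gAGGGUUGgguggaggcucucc
miR-503-5p: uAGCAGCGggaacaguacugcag
miR-503-3p: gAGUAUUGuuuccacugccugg
In each of these hairpins the arms have different seeds. The hairpin of miR-296 is at chr2:174267047-174267125 and that of miR-503 at chrX:53053984-53054054, both on the minus strand of GRCm38.p6 with no other annotated gene over them.

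For miR-296 the 5p arm held 93.3%, 94.6% and 92.1% of the counts of both arms in blood of mice 2, 4 and 8 and 23.6%, 26.6% and 24.0% in colon. The difference was 5.41 in log2 (SE 0.28, adjusted p 0.00122 in limma). In levels, miR-296-5p had 155, 166 and 190 CPM in blood and 1.74, 2.23 and 1.35 CPM in colon, while miR-296-3p had 11.2, 9.49 and 16.2 CPM and 5.63, 6.14 and 4.29 CPM. For miR-503 the 5p arm held 84.2%, 80.7% and 85.2% in blood and 25.3%, 9.02% and 19.1% in colon (difference 4.64, SE 0.38, adjusted p 0.00198). Here miR-503-5p was higher in blood (log2 fold change 3.90) and miR-503-3p was not SDE (-0.74).

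The 4 other hairpins with a change of the leading arm differed less. miR-132 had 57.0%, 56.3% and 59.8% of its counts on the 5p arm in blood and 34.1%, 32.0% and 36.9% in colon (difference 1.38). In miR-181c the 5p arm held 43.5%, 21.4% and 34.6% in blood and 60.3%, 65.5% and 57.1% in colon. In miR-223 it held 43.2%, 32.1% and 28.3% in blood and 60.4%, 61.2% and 64.7% in colon. In miR-669a, whose arms belong to a repeated gene family whose reads can be shared, it held 38.5%, 25% and 41.2% in blood, from 5, 5 and 7 counts of that arm, and 54.0%, 52.1% and 60.7% in colon. With any 1 mouse left out, miR-132 and miR-669a were no longer past the threshold, nor were miR-181c without mouse 4 or miR-223 without mouse 4 or mouse 8.

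The other 4 of the 6 largest arm differences had no change of the leading arm in all 3 mice. miR-505 had 99.7%, 99.3% and 99.6% on the 5p arm in blood and 84.1%, 79.1% and 84.8% in colon (difference 5.63). miR-486b had over 99% on the 5p arm in both tissues, but reads of that arm cannot be told from those of miR-486a, so its difference belongs to no single hairpin. miR-9 had 60%, 27.8% and 51.9% on the 5p arm in blood, from 15, 5 and 27 counts of the 5p arm, and 98.2%, 97.4% and 97.9% in colon (difference -5.71). miR-3066 had 61.9%, 23.7% and 31.1% in blood and 100%, 100% and 92% in colon, where the 3p arm had 0, 0 and 2 counts beside 15, 17 and 23 of the 5p arm, so that the size of its difference rests on the pseudocount. All 6 of these stayed past the threshold with each mouse left out, whereas without mouse 4 the number of hairpins past it was 12.

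**Figure D5:**
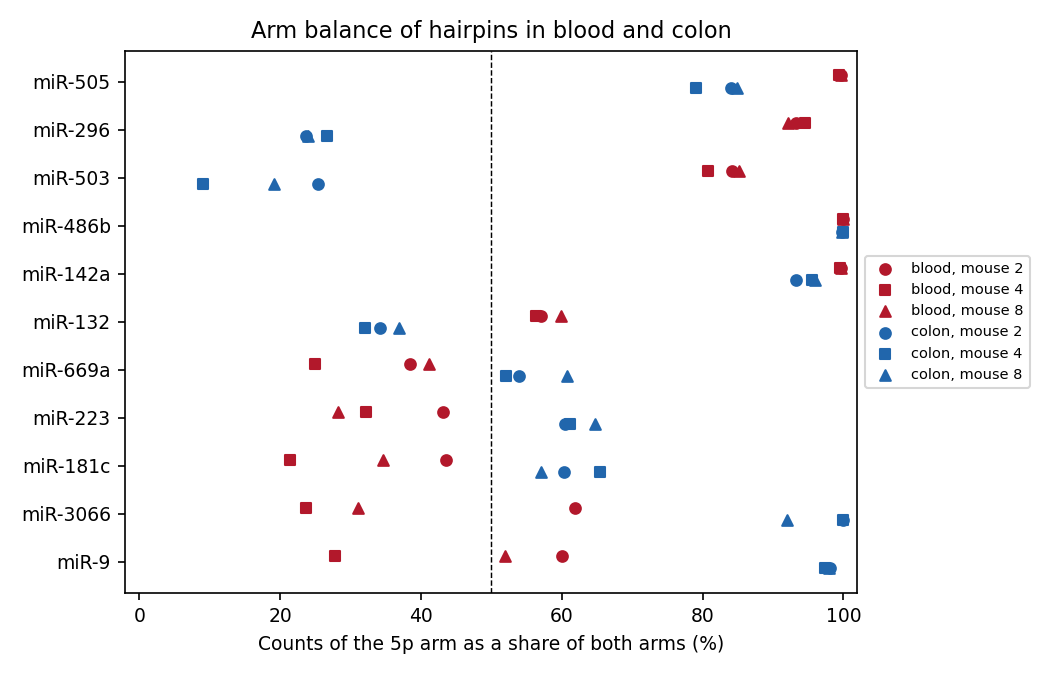
Share of the 5p arm in the counts of both arms (percent) of 11 hairpins in each library; symbols are the 3 mice, red is blood, blue is colon and the dashed line is at 50%. miR-296 and miR-503 lie above 80% in blood and below 27% in colon.

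A difference in base composition went with the direction. The median GC content was 54.5% in the 211 miRNAs higher in blood, 45.8% in the 313 lower in blood and 50% in all 603, and Spearman's correlation of GC content with the log2 fold change was 0.29 over 603 miRNAs, as a description over miRNAs of the same 6 libraries. Its part in the results was not tested, and the kits differ between the tissues.

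The same contrast in mice 1, 7 and 9, which the study names as its DSS mice, was set against that in mice 2, 4 and 8 by an interaction term fitted with edgeR to the 12 libraries. Among 680 tested miRNAs, 1 passed an adjusted p of 0.05 (0.147%), and 66 had an unadjusted p under 0.05. This was miR-148a-3p, known from epithelium and B cells. In this fit it had 2716, 1857 and 4202 CPM in blood and 32370, 29633 and 26639 CPM in colon of mice 2, 4 and 8, and 8282, 3437 and 3340 CPM in blood and 17465, 10843 and 7114 CPM in colon of mice 1, 7 and 9. Its log2 fold change was -3.41 in mice 2, 4 and 8 and -1.27 in mice 1, 7 and 9, with a difference of -2.14 (SE 0.40, padj 0.0457). The call was lost with no block (padj 0.142), with RLE factors (padj 0.151) and without mouse 4 (padj 0.262), mouse 7 (padj 0.055) or mouse 9 (padj 0.0769). The next was miR-192-5p, at -6.77 and -5.15, with a padj of 0.0619. In mice 1, 7 and 9 blood remained below colon for miR-148a-3p and miR-192-5p.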

How the data were processed

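Small RNA was sequenced from whole blood and colon of 6 mice, and the 6 libraries of mice 2, 4 and 8 were analysed here, with those of mice 1, 7 and 9 for 1 comparison. The authors deposited raw counts per mature miRNA, made with the quantifier of miRDeep2 (2.0.1.0) on miRBase 22. They also deposited a normalized signal per tissue, the count divided by a DESeq2 (1.22.2) size factor, which is a constant per library and was computed in each tissue apart, so levels were compared from counts. No molecular identifiers are named, so the Poisson interval and the limits for miRNAs without counts in a tissue hold for counting error alone. The intervals of log2 fold changes rest on the standard error of the edgeR fit, which takes in the spread between libraries.

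The tests were run with edgeR (4.0.16, R 4.3.3), using filterByExpr by tissue, TMM factors, glmQLFit and glmQLFTest, with the mouse as a block, since same-numbered libraries come from the same animal. The standard error is the log2 fold change divided by the root of the F statistic. The deviations of same-numbered libraries from the tissue means correlated at 0.039, -0.040 and 0.109 over 135 miRNAs. A miRNA is SDE where the fold change is over 1.5 and the adjusted p (Benjamini-Hochberg) is not above 0.05. Arm ratios used limma (3.58.1) on log2((5p + 0.5)/(3p + 0.5)). With 3 against 3, an exact permutation test cannot go below 0.1, and sign flips of 3 pairs cannot go below 0.25, so these were not used. Replicates are mice. With the mouse as a block, p-values rest on the spread of the difference between blood and colon across these animals, moderated over all miRNAs. Bounds for miRNAs at 0 use 3 counts per library. Alternatives were other scalings, DESeq2 (1.42.0), other filters, no block, duplicate entries kept once, robust dispersion, all 12 libraries, other mice and each mouse left out.

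In tests on simulated counts of the 6 libraries, 200 miRNAs were changed. There edgeR recovered 33% of changes of 2-fold and 100% of changes of 4-fold, with 598 and 584 miRNAs tested. At 4-fold it also called 8 unchanged miRNAs, 3.88% of its calls. In simulated tests of the interaction edgeR recovered 6% and 81.5%, with 655 and 647 miRNAs tested. In the data 524 of 603 tested miRNAs were SDE between the tissues. Recovery under so broad a difference between blood and colon was not tested.

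The members and the lists of miRNAs were chosen with earlier results of these data known. Named are the members of the lists with the highest levels, the 10 leading miRNAs of each tissue, the 6 with the largest fold change in each direction at 10 CPM or more, the 6 nearest to equal at 100 CPM or more, the 5 highest with 0 counts in the other tissue, and hairpins with the 6 largest arm differences or a change of the leading arm. Clusters, miR-18a, 4 hairpins of low counts (miR-490, miR-511, miR-6967 and miR-141) and 2 with a shared arm (miR-199a and miR-199b) were named after their values were seen. Positions come from RefSeq hairpins in GRCm38.p6 and gene annotation from GENCODE vM21. Tables and figures were made in Python (3.11.15).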

Additional observations from a re-analysis of the deposited data

Results flagged for a closer look

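The difference between blood and colon in miR-148a-3p was not the same in mice 2, 4 and 8 as in mice 1, 7 and 9. The difference of both log2 fold changes was -2.14 in the interaction test of edgeR over all 12 libraries (padj 0.0457), and blood was below colon in 6 of 6 mice. It ranged from -2.43 to -1.85 with each mouse left out, and the padj was 0.262 without mouse 4, 0.055 without mouse 7 and 0.0769 without mouse 9. The padj was 0.142 with no block by mouse and 0.151 with RLE factors. The sample labels and the study disagree on which of these mice had colitis, so these sets are named here by their mice alone.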

How the results depend on the processing

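With no block by mouse 319 SDE miRNAs were lower in blood and 40.3% of the SDE miRNAs were higher, and the paired fit with the block gave 313 lower and 211 higher. The counts stayed within 1.5 times of the latter under the alternatives run, except that a filter of 10 counts in every library left 310 miRNAs and gave 130 and 115. Without each mouse in turn they were 197 to 221 higher and 303 to 312 lower. With total counts alone 34.3% of the SDE miRNAs were higher in blood and with upper-quartile factors 52.9%, against 40.3%. miRNAs detected in blood alone fell to 76 with 1 CPM in every library as the limit. Hairpins with another arm balance were 57 with no block and 12 to 49 without each mouse, lowest without mouse 4. For the interaction the number past the threshold in edgeR was 0 with no block (94 at an unadjusted p under 0.05), 0 with RLE factors (75) and 0 to 4 without each mouse, with 4 without mouse 1 or mouse 2, 0 without mouse 4 (46), mouse 7 (58) or mouse 9 (67). The causes were not tested.

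Signs turned for the following log2 fold changes, of which miR-92b-3p, miR-29a-3p and miR-142a-3p were SDE. With RLE factors miR-30c-5p was 0.15, miR-222-3p 0.41 and miR-151-3p 0.34, and with DESeq2 they were 0.15, 0.41 and 0.34. With upper-quartile factors miR-92b-3p was 0.15, miR-30c-5p 1.29, miR-30e-5p 1.05, miR-223-5p 0.77, miR-29a-3p 0.43, miR-222-3p 1.55 and miR-151-3p 1.48. With total counts alone miR-30d-5p was -0.45 and let-7j -0.11, and without the miR-486 entries miR-30d-5p was -0.073. With 10 counts in every library miR-30c-5p was 0.40, miR-30e-5p 0.17, miR-222-3p 0.66 and miR-151-3p 0.59. With identical entries kept once miR-30c-5p was 0.017, miR-222-3p 0.28 and miR-151-3p 0.21. In mice 7, 8 and 9 miR-30c-5p was 0.46, miR-142a-3p -0.91, miR-222-3p 0.43 and miR-151-3p 0.26, and with all 6 mice miR-30c-5p was 0.18 and miR-222-3p 0.45. With no block miR-222-3p was 0.024. Without mouse 2 miR-30c-5p was 0.13. Without each mouse in turn miR-222-3p ranged from -0.092 (without mouse 8) to 0.22 (without mouse 4) and miR-151-3p from -0.18 (without mouse 8) to 0.25 (without mouse 2). Of the list medians, myeloid was -0.24 in mice 7, 8 and 9, miR-15 and miR-16 was -0.17 with total counts alone and -1.42 with no filter, and miR-30 was 1.05 with upper-quartile factors and 0.17 with 10 counts in every library.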
